A study of Oryza sativa Japonica Group with 6 samples.

Results

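Mutually exclusive exons are neighbouring exons of a gene of which a transcript carries 1 or the other. The deposited splicing tables of a rice grain study list 211 events under this name, all with junction reads, among 12313 splicing events with values. Membership followed the authors' own classification, and every event of that table was kept. In 169 of the 211 events at least 1 assembled transcript carries both exons, so the class name does not describe every transcript. Of the 211 events, 139 had at least 20 junction reads in every library and were tested, and the other 72 are described only by their structure and reads.

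The study compared grains of an sgs3 mutant, 3 libraries labelled with EMS treatment, with grains of the wild-type line Zhenong 34, 3 control libraries. EMS (ethyl methanesulfonate) is a mutagen that makes mainly point mutations, and the labels give neither the mutated position nor the age of the grains. The protein SGS3 partners an RNA-dependent RNA polymerase when plants make small interfering RNAs. The labels do not tell whether libraries stand for separate plants, and every p-value therefore covers only the differences among these libraries, possibly technical ones. The mutually exclusive exon table held 3 sgs3 and 2 wild-type libraries without replicate numbers, and which wild-type library is not in it could not be read from the table.

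In plants, alternative splicing mostly retains introns or moves splice sites, and mutually exclusive exons are the rarest of the common kinds. A switch between such exons exchanges a stretch of protein where both have lengths that keep the reading frame, and otherwise shifts the frame behind them. Tandem exon copies, in which both alternatives encode similar stretches, are the textbook case in animals. The inclusion level, a fraction from 0 to 1 in the authors' deposited tables, is the share of length-corrected junction reads that join the alternative exon transcribed first. That exon is called the upstream exon here and the other the downstream exon. The effective lengths in the table matched this reading in 211 of 211 events, with 89 events on the plus strand and 122 on the minus strand. The match cannot tell the exons apart in the 26 events of equal length, or where both exons reach the largest effective length. There the same reading was carried over.

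Junction reads of the events summed to between 191631 and 237650 per sgs3 library and to 202573 and 170978 in the wild-type libraries. A pair of genes on chromosome 12 are described as SGS3 homologs. The first (LOC_Os12g09580) had 8.73, 11.59 and 29.24 TPM (transcript abundance scaled to a fixed total per library) in the sgs3 libraries and 94.92, 40.86 and 53.45 TPM in the wild-type libraries. The second (LOC_Os12g09590) had 2.03, 3.40 and 2.61 TPM in the sgs3 libraries and 3.36, 3.67 and 3.48 TPM in the wild-type libraries, with overlap. Which of them carries the mutation is not stated in the labels. Genes described as glutelins, the main storage proteins of rice grain, summed to between 195000 and 207000 TPM in the sgs3 libraries. They summed to 26500, 162000 and 134000 TPM in the wild-type libraries, where replicate 1 stood apart. No label tells whether that library is among the 2 of the splicing table. A gene with 4 events (LOC_Os08g26230), picked after its values were seen, had 49.28, 2.73 and 5.07 TPM in wild-type replicates 1 to 3. In sgs3 it had 2.78, 62.08 and 38.35 TPM. The upstream exon of 1 of its events had 12, 85 and 88 junction reads in sgs3 and 0 and 14 in wild type. Neither wild-type count was high where replicate 1 had the highest wild-type TPM. Which library is absent was not tested.

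The 211 events lay in 167 genes, 116 of them with a description, and 141 genes had 1 event. They were spread over all 12 chromosomes, with 1 event on unplaced sequence. The events used 375 distinct exons, and 57 events shared an exon with another one, so events are not independent of each other. The authors' table marks 65 of the 211 events as known. Both exons lay in a transcript that the table lists for each of them in 169 events, or 80.1%. In these events at least 1 assembled transcript carries both exons together. The other 42 events shared no listed transcript, and 22 of those paired exons of exactly equal length. The 42 include 8 events in which no transcript is listed for 1 of the exons, so sharing could not be assessed there.

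Exons were short. Their lengths ran from 27 to 3234 bases with a median of 98 over the 422 exon places, and exons of the skipped-exon table had a median of 99 bases. A length that is a multiple of 3 was found in 182 of 422 exon places, or 43.1%, against 37.5% of 5133 skipped exons. The 2 lengths of an event differed by a multiple of 3, or were equal, in 99 of 211 events. Without the events of equal length these were 73 of 185, or 39.5%, and 50 of the 211 events had both lengths as multiples of 3. Whether the exons are coding is not stated in the files. The distance between the exons had a median of 547 bases and ran from 0 bases, in 3 events, to 55491 bases.

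**Figure D1:**
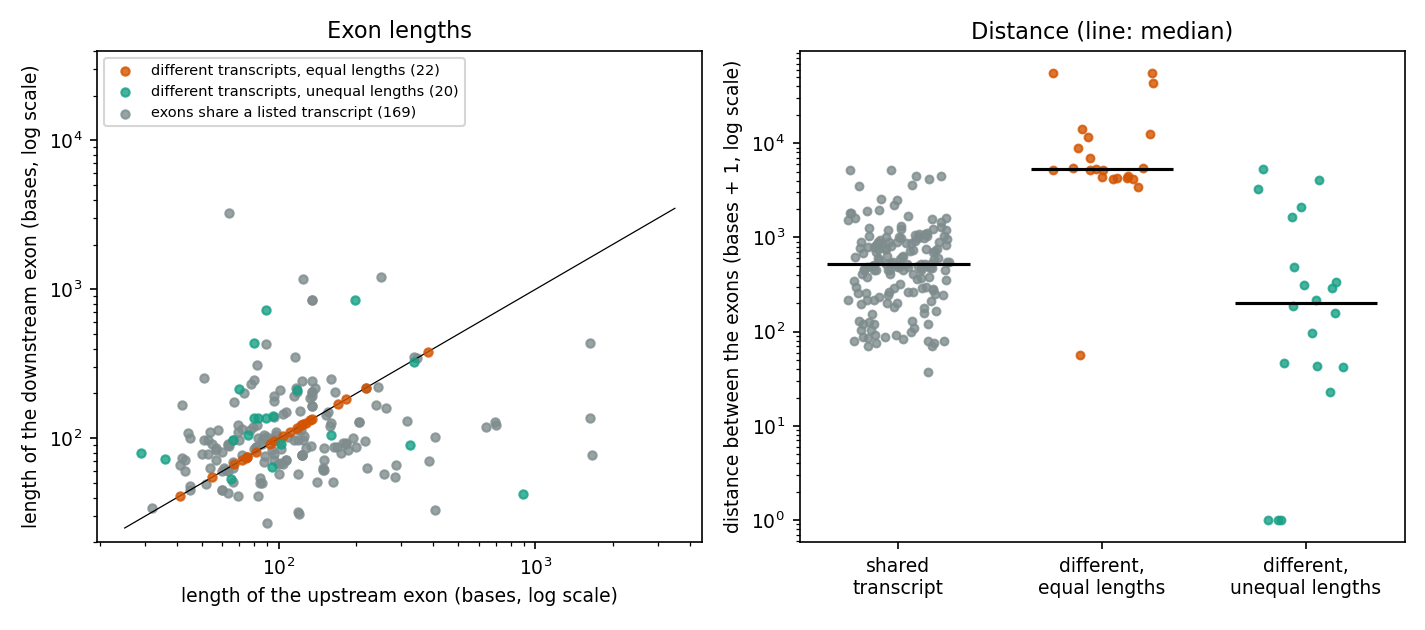
Left, length of the downstream exon against that of the upstream exon in bases (log scales; each point is 1 of 211 events and the line marks equal lengths). Right, distance between the 2 exons plus 1 base (log scale; points are events and lines are medians). The 22 equal-length events without a shared transcript lie on the line and, apart from 1, at least 3000 bases apart.

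The shortest and the longest exon both belonged to events with a shared transcript. The 27-base exon was the downstream exon of a probable ubiquitin-conjugating enzyme E2 25 gene (LOC_Os01g12950), of the enzyme class that passes ubiquitin to target proteins. It lies on chromosome 1 from 7199764 to 7199790, after a 90-base upstream exon from 7199064 to 7199153. The 3234-base exon was the downstream exon of soluble starch synthase 3 (LOC_Os08g09230), which extends amylopectin chains in the endosperm. It lies on chromosome 8 from 5353302 to 5356535, and its 64-base upstream partner from 5353152 to 5353215. Coordinates are counted from 1 on a genome build that the labels and file headers do not name.

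The 22 equal-length events without a shared transcript were spaced widely. Their exons were a median of 5270.5 bases apart, and 21 of 22 were at least 3000 bases apart, against 31 of all 211 events. All 10 events in genes of cytosolic ribosomal proteins were of this kind, in 7 genes (S7, S9-2, S23, L5-1, L39 and, in 2 genes, L44). The others with a description included a putative coatomer subunit beta'-3, the SC35-like splicing factor SCL30, methionine synthase 2, the AB hydrolase YfhM and a Copia protein. Coatomer coats vesicles that return from the Golgi to the endoplasmic reticulum, and methionine synthase transfers the methyl group that makes methionine. For 7 of the 22 events, in 6 of 17 genes, a locus nearby in the locus numbering carries the same description apart from an isoform number. The sequences of these loci were not compared, and the neighbour of the Copia gene had 0 TPM in every library. Reads of near-identical copies can be split between them by alignment. Whether this happened here was not tested, so the inclusion levels of these events are uncertain.

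The remaining 20 events without a shared transcript paired exons of unequal length, a median of 201 bases apart. They lay in genes such as a probable 2-aminoethanethiol dioxygenase, which belongs to the thiol dioxygenases that act as plant cysteine oxidases, and a DNA methyltransferase of the CMT2 type. Only 10 of these 20 events had enough reads to be tested.

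Reads were concentrated in few genes. The events had a median of 466 junction reads over the 5 libraries together and ranged from 2 to 193859. The 5 deepest events held 64.5% of all reads, and the 8 events in 4 starch synthesis genes held 59.1%. The 3 genes with the deepest events were a starch branching enzyme (LOC_Os06g51084), which puts branches into amylopectin, a calcium-dependent protein kinase (LOC_Os10g39420), a sensor of calcium signals, and branching enzyme 2 (LOC_Os02g32660).

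Inclusion levels were mostly intermediate. The headings of the read columns and of the level columns name opposite groups, and the level headings are followed here, so every direction of a splicing difference rests on them. The median level over the 139 tested events was 0.511, 0.502 and 0.508 in the sgs3 libraries and 0.464 and 0.447 in the wild-type libraries. The mean of the 2 group levels lay between 0.3 and 0.7 in 85 of 139 events, or 61.2%, below 0.1 in 9 and above 0.9 in 8. Events with a shared transcript made up most of the middle, with 80 of 112 between 0.3 and 0.7. Equal-length events had 4 of 17 there and a median of 0.71, and unequal ones without a shared transcript 1 of 10 and a median of 0.749.

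The deepest events sat near the middle with little spread. In the branching enzyme LOC_Os06g51084, the event of a 108-base and a 102-base exon had levels of 0.471, 0.463 and 0.452 in sgs3 and 0.417 and 0.418 in wild type. Its second event, of the same 102-base exon and a 68-base exon, had 0.574, 0.577 and 0.556 in sgs3 and 0.523 and 0.504 in wild type. In both events every sgs3 library lay above both wild-type libraries, and neither passed the test (adjusted p = 0.792 and 0.681, quasi-binomial model over all 5471 tested splicing events). The shared 102-base exon is the downstream exon of the first pair and the upstream exon of the second. A higher level therefore means a smaller share of that exon in the first event and a larger share in the second.

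The kinase LOC_Os10g39420 had 0.434, 0.461 and 0.439 in sgs3 and 0.415 and 0.444 in wild type, and its groups overlapped. Branching enzyme 2 had 0.338, 0.309 and 0.316 in sgs3 and 0.310 and 0.288 in wild type for its deepest event, also with overlap. The large subunit 1 of ADP-glucose pyrophosphorylase (LOC_Os01g44220), which makes the glucose donor for starch, had 0.363, 0.363 and 0.339 in sgs3 and 0.311 and 0.295 in wild type for exons of 81 and 87 bases. Its sgs3 libraries lay above the wild-type ones (adjusted p = 0.679). A second event of that gene, of the same 87-base exon and a 105-base exon, had 0.963, 0.955 and 0.962 in sgs3 and 0.970 and 0.969 in wild type. The shared 87-base exon is the downstream exon of the first pair and the upstream exon of the second, so the levels of these 2 events are not of the same exon.

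The events with a mean level nearest 0.5 were in genes of several functions. A mechanosensitive ion channel protein (LOC_Os03g31839) had 0.383, 0.566 and 0.611 in sgs3 and 0.478 and 0.470 in wild type. The phosphatase DSP8 (LOC_Os10g41240) had 0.490, 0.536 and 0.565 in sgs3 and 0.491 and 0.463 in wild type. The peroxisomal hydroxy-acid oxidase GLO4 (LOC_Os07g42440) had 0.455, 0.511 and 0.542 in sgs3 and 0.464 and 0.510 in wild type. In these 3 events the groups overlapped. An F-box protein gene (LOC_Os03g64360), of the family that selects proteins for ubiquitination, had 0.551, 0.530 and 0.558 in sgs3 and 0.494 and 0.434 in wild type without overlap (adjusted p = 0.792). The remaining event of this set lies in a gene without a description and is not named.

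The same exons were also looked up by coordinates in the deposited skipped-exon table, taking events with at least 100 junction reads. Both exons of 150 events were listed there. Over all listed exons, from the 170 events with at least 1 exon listed, the inclusion level as skipped exons had a median of 0.992. In the 150 events the lower of the 2 exons had a median of 0.979. In 124 of the 150 events both exons were at 0.9 or above, and 84 of these 124 had a mutually exclusive level between 0.3 and 0.7. The branching enzyme, kinase and pyrophosphorylase exons described above were at 1 in that table. The labels do not state how reads of transcripts that carry both exons were counted in the mutually exclusive level. An intermediate level therefore does not show that transcripts carry 1 exon or the other.

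**Figure D2:**
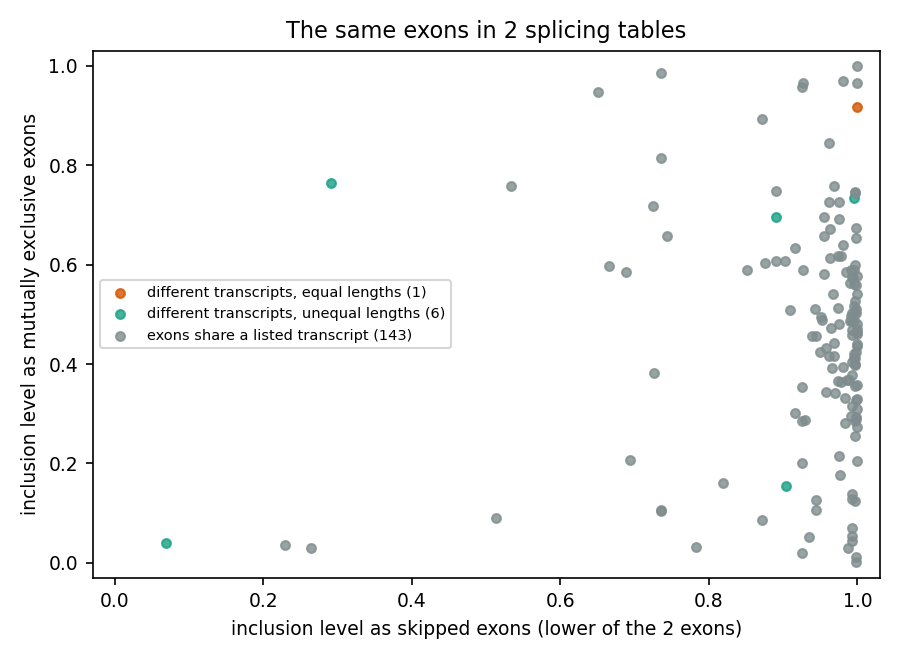
Mean inclusion level as mutually exclusive exons against the inclusion level of the same exons in the skipped-exon table, lower of the 2 exons (fractions; each point is 1 of 150 events with both exons listed there). Most points stand at the right edge, at 0.9 or above, over the whole range of mutually exclusive levels.

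In 4 events the lower exon of a listed pair was under 0.5 as a skipped exon. These and the following events were chosen after their values were seen. Of the 4, 1 lies in the RNA-binding protein gene RBP45 (LOC_Os04g53440), 1 in a homolog of the yeast mitochondrial protein AIM25 (LOC_Os02g14290) and 2 in genes without a description. The RBP45 event pairs an 86-base upstream exon, at 0.229 as a skipped exon, with a 50-base downstream exon at 0.953. Its mutually exclusive level was 0.047, 0.029 and 0.034 in sgs3 and 0.039 and 0.029 in wild type, with overlap.

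A second gene described as RBP45 (LOC_Os08g09100) has an event of the same layout, with exons of 84 and 50 bases at 0.513 and 0.991 as skipped exons. Its level was 0.165, 0.116 and 0.102 in sgs3 and 0.056 and 0.050 in wild type. The groups did not overlap, with a log odds ratio of 0.905 ± 0.297 (SE) and an adjusted p of 0.419. Proteins of this family bind poly(A) RNA. The AIM25 homolog pairs a 324-base exon at 0.971 with a 90-base exon at 0.291, and its level was 0.811, 0.698 and 0.869 in sgs3 and 0.680 and 0.793 in wild type, with overlap.

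In a pair of further events only the downstream exon was listed as a skipped exon, and there it was nearly absent. That of ADP-ribosylation factor-related protein 1 (LOC_Os03g27450), a small GTPase relative of vesicle transport, was at 0.00167, and its mutually exclusive level was 1, 1 and 1 in sgs3 and 1 and 0.997 in wild type. That of a 3-hydroxyisobutyryl-CoA hydrolase-like gene (LOC_Os06g39344), named for valine breakdown, was at 0.0757, with levels of 1, 1 and 0.947 in sgs3 and 0.791 and 1 in wild type. In both genes the mutually exclusive reads were mostly those of the upstream exon, and neither event passed the test (adjusted p = 0.792 each).

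For 1 of the 139 tested events the difference between sgs3 and wild type was called, at an adjusted p under 0.05 with a difference of at least 0.1. Over all 5 kinds of splicing event 17 of 5471 were called, or 0.311%. At an unadjusted p under 0.05 there were 16 mutually exclusive events, or 11.5%, against 6.03% of all events. A single call beside this background is not a result about the events as a group. Leaving out the first wild-type library gave 3 called events, and leaving out the second gave 2.

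The called event is the one in the putative coatomer subunit beta'-3 gene (LOC_Os02g11830). The level was 0.986, 0.898 and 0.980 in sgs3 and 0.496 and 0.436 in wild type. In each sgs3 library most junction reads were of the upstream exon, and in both wild-type libraries the reads of the 2 exons were about equal. The upstream exon had 73, 44 and 97 junction reads in sgs3 and 56 and 68 in wild type, and the downstream exon had 1, 5 and 2 in sgs3 and 57 and 88 in wild type. The log odds ratio was 3.44 ± 0.596 (SE) and the adjusted p was 0.00113, with a difference of 0.489. The call was lost with limma on logit levels (adjusted p = 0.12) and without moderation of the dispersion (0.784), and with a minimum of 50 reads the event, with 49 in its shallowest library, was not tested.

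Both exons of this event are 117 bases long and lie 12412 bases apart on the minus strand of chromosome 2, from 6135644 to 6135760 and from 6123115 to 6123231. The next locus number, LOC_Os02g11840, is described as coatomer subunit beta'-2. Whether the 2 exons belong to 1 gene or to neighbouring copies cannot be told apart from the tables. The beta'-3 gene had 6.79, 6.70 and 12.28 TPM in sgs3 and 16.08, 12.95 and 22.22 TPM in wild type, and the beta'-2 gene had 6.21, 7.65 and 11.82 TPM in sgs3 and 26.12, 14.81 and 27.22 TPM in wild type. Both genes were lower in every sgs3 library than in any wild-type library. The beta'-3 gene did not pass the test (limma, log2 fold change -0.93, adjusted p = 0.0782), and after median-of-ratios scaling its change was 0.07 (adjusted p = 0.868). The beta'-2 gene passed in TPM as deposited, at -1.31 with an adjusted p of 0.0449, but once scaled it stood at -0.29 with an adjusted p of 0.34, beside a median of -0.86 over all genes in TPM as deposited.

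Inclusion levels did not overlap between the groups in 43 of the 139 tested events, or 30.9%. The share over all 5 tables was 13.6%, but the skipped-exon table holds 3 libraries a group, and over the 4 tables with 3 sgs3 and 2 wild-type libraries it was 20.2%. Of the 43 events, 33 were higher and 10 lower in sgs3, and among the events of those 4 kinds the share without overlap was 9.36% on the higher and 10.8% on the lower side. The median difference in level was 0.0285 over the 139 events, with 96 higher and 43 lower in sgs3, beside 0.000333 over all tested splicing events. The group means differed by a median of 0.051, sgs3 libraries differed among themselves by a median of 0.05 and the wild-type libraries by 0.041. In 73 of 139 events the difference exceeded the SD of the sgs3 libraries.

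The 2 wild-type libraries also differed from each other in 1 direction. The first in the table was the higher one in 99 of 139 events, or 71.2%. Without the first wild-type library the median difference was 0.035, and without the second it was 0.0175. By depth, 29 of the 47 events with fewest reads, 32 of 45 in the middle and 35 of the 47 with most reads were higher in sgs3, with median differences of 0.0438, 0.0403 and 0.022. The deepest events were thus higher in sgs3 most often, with the smallest median difference.

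**Figure D3:**
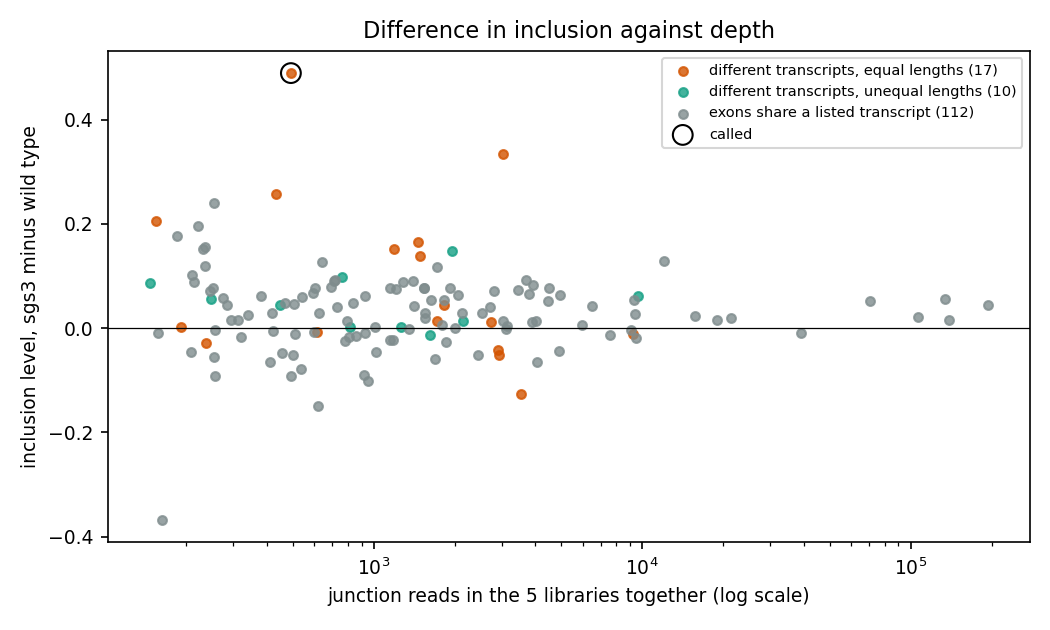
Difference in inclusion level, sgs3 minus wild type, against the junction reads of the event in the 5 libraries together (log scale; points are the 139 tested events and the circle marks the called one). More points lie above 0 than below, 96 against 43, and the called event is the highest at 0.489.

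The other events with the largest differences among those whose groups did not overlap follow by gene, and none of them passed the test. In the ubiquitin-conjugating enzyme event the level was 0.475, 0.240 and 0.543 in sgs3 and 0.848 and 0.727 in wild type. The log odds ratio was -1.57 ± 0.544 (SE) with an adjusted p of 0.428. The wild-type junction reads were thus mainly those of the 90-base exon and the sgs3 reads were of both exons, on 163 reads in all. As the exons share a transcript, these reads do not show a switch from 1 exon to the other.

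The AB hydrolase YfhM event, on chromosome 10 with 2 exons of 218 bases, had 0.509, 0.659 and 0.750 in sgs3 and 0.461 and 0.301 in wild type (adjusted p = 0.341). A nearby locus carries the same description. LOC_Os10g35520, the host, had 8.31, 12.05 and 25.34 TPM in sgs3 and 65.83, 17.83 and 16.62 TPM in wild type, and LOC_Os10g35540 had 8.71, 11.97 and 16.28 TPM in sgs3 and 44.10, 21.38 and 24.51 TPM in wild type. Both copies were thus expressed at similar levels, and the TPM groups overlapped in the host and not in the second copy.

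In the gene of regulatory subunit 3 of protein phosphatase 4 (LOC_Os05g06470), a phosphatase complex with a part in DNA damage signalling in yeast and animals, the level was 0.714, 0.709 and 0.757 in sgs3 and 0.529 and 0.445 in wild type. The sgs3 libraries were close together, and the difference of 0.24 rested on 253 reads (adjusted p = 0.566). The fourth largest after the called event lies in a gene without a description and is not named.

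Dicer homolog 4 (LOC_Os04g43050) cuts the double-stranded RNA that SGS3 and its polymerase partner produce into small RNAs. Its event pairs a 101-base and a 212-base exon, both at 0.99 or just below as skipped exons (0.990 and 0.988). The level was 0.374, 0.486 and 0.508 in sgs3 and 0.294 and 0.264 in wild type. The groups did not overlap, but the 185 reads left the log odds ratio at 0.839 ± 0.441 (SE) and the adjusted p at 0.792. The gene itself had 3.01, 3.95 and 5.58 TPM in sgs3 and 12.64, 4.60 and 5.06 TPM in wild type, with overlap.

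Glutathione S-transferase zeta (LOC_Os02g35590), an enzyme of tyrosine breakdown, went the other way. Its level was 0.259, 0.222 and 0.401 in sgs3 and 0.419 and 0.467 in wild type (adjusted p = 0.792). In the zinc finger HIT domain protein gene (LOC_Os01g61430) it was 0.850, 0.713 and 0.705 in sgs3 and 0.592 and 0.665 in wild type (adjusted p = 0.792). Both events have short alternative exons, of 57 and 86 bases and of 119 and 32 bases.

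The thiol dioxygenase gene LOC_Os03g45210 holds 4 events made from 2 upstream and 2 downstream exons. With the 438-base downstream exon, the 80-base upstream exon had levels of 0.746, 0.787 and 0.773 in sgs3 and 0.710 and 0.534 in wild type (adjusted p = 0.463). The 1628-base upstream exon had 0.641, 0.683 and 0.673 in sgs3 and 0.648 and 0.448 in wild type, with overlap. With the 137-base downstream exon the 80-base exon had 0.182, 0.177 and 0.201 in sgs3 and 0.129 and 0.120 in wild type, on 9628 reads. No overlap between the groups was seen there (adjusted p = 0.479). The 1628-base exon had 0.119, 0.111 and 0.131 in sgs3 and 0.1 and 0.088 in wild type against that same downstream exon. All 4 events were higher in sgs3 on average, but they share exons and reads and count as 1 observation.

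Soluble starch synthase 3, with the longest exon, had 0.383, 0.355 and 0.402 in sgs3 and 0.302 and 0.203 in wild type. The log odds ratio was 0.52 ± 0.175 (SE) on 12005 reads, with an adjusted p of 0.428. Both its exons were near complete inclusion in the skipped-exon table (0.992 and 0.999). The gene had 223.8, 326.4 and 244.2 TPM in sgs3 and 117.9, 224 and 172.1 TPM in wild type, and the lowest sgs3 library lay just under the highest wild-type one.

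**Figure D4:**
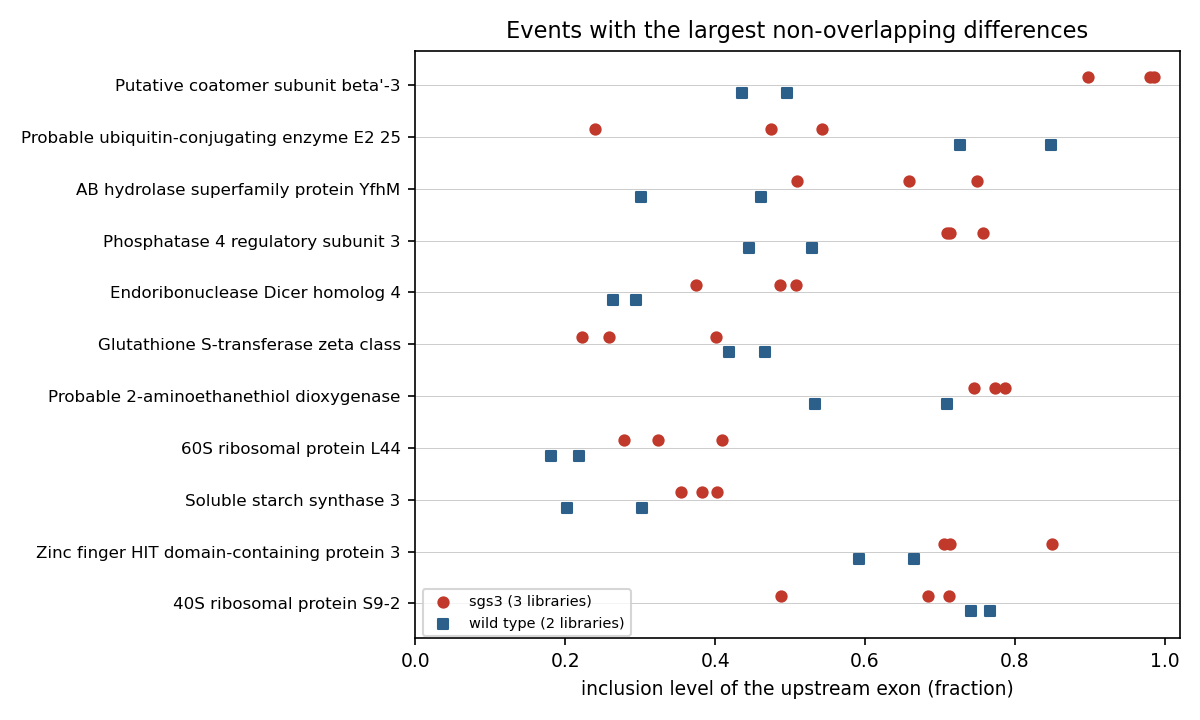
Inclusion level of the upstream exon in each library for the 11 named events with the largest non-overlapping differences (red circles: 3 sgs3 libraries, blue squares: 2 wild-type libraries, a fraction from 0 to 1). The coatomer event has the widest gap, with 0.898 as the lowest sgs3 level and 0.496 as the highest wild-type level.

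Ribosomal protein events showed both directions. 40S S9-2 (LOC_Os11g38959) had 0.684, 0.712 and 0.488 in sgs3 and 0.742 and 0.767 in wild type. Its log odds ratio was -0.967 ± 0.208 (SE) and its adjusted p of 0.091 was the lowest among the uncalled mutually exclusive events. Without the third sgs3 library the difference was -0.0565 instead of -0.126, so that library carries most of it.

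60S L44 had 2 events with 75-base exons, 4287 bases apart in each. The one in LOC_Os07g33860 had 0.409, 0.324 and 0.278 in sgs3 and 0.218 and 0.181 in wild type (adjusted p = 0.595), and the one in LOC_Os07g33997 had 0.556, 0.535 and 0.325 in sgs3 and 0.344 and 0.298 in wild type with overlap. LOC_Os07g33898, also described as L44, had 63.06, 40.51 and 209.9 TPM in sgs3 and 1259, 269.2 and 473.5 TPM in wild type. It is the more abundant copy beside LOC_Os07g33860, which had 19.20, 21.46 and 57.14 TPM in sgs3 and 377, 87.12 and 185.7 TPM in wild type. LOC_Os07g33997 was above both in every library, with 157.9, 120.7 and 488 TPM in sgs3 and 3040, 780.5 and 1248 TPM in wild type.

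In 60S L39 the libraries of a group spread widely, with 0.078, 0.034 and 0.306 in sgs3 and 0.343 and 0.021 in wild type. Of the 3 events of 60S L5-1, 1 was spread, with 0.922, 0.722 and 0.764 in sgs3 and 0.509 and 0.767 in wild type. The other two were tight, with 0.913, 0.853 and 0.873 in sgs3 and 0.861 and 0.874 in wild type, and with 0.737, 0.671 and 0.752 in sgs3 and 0.745 and 0.716 in wild type. The groups overlapped in each, as they did in the events of S7 and S23, where sgs3 levels lay between 0.674 and 1 and wild-type levels between 0.847 and 0.953. The extreme case lay outside this family, in an equal-length event of a gene described as a DNA-binding protein (LOC_Os05g47446) with exons 55259 bases apart. It had 0.989, 0.551 and 0.986 in sgs3 and 1 and 0.018 in wild type, with 1202 and 595 reads in the 2 wild-type libraries. Wild-type libraries thus stood at opposite ends there, and no difference between the groups can be read from it.

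The authors' deposited table calls 24 of the 211 events, or 11.4%, beside 6.48% of the 12313 events of all kinds. Of these 24, 18 were higher in sgs3, 17 had at least 20 reads in every library and 1, the coatomer event, was called here. The coatomer event has an FDR of 0 as printed in the authors' deposited table, and starch synthase 3 has 0.000417 there. Its heading says that the deposited test used junction reads only, and the program is not named.

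Host genes of the events were well expressed. Their mean TPM had a median of 19.7 over the 161 tested host genes, against 6.8 over all 16352 tested genes. A gene counts as a host only if an event in it has junction reads, so a higher TPM is partly built into this choice. Of the 167 host genes 163 are in the gene table. In TPM as deposited, 3 of the 161 host genes rose and 49 fell in sgs3 by limma, beside 1.55% of all genes rising and 26.3% falling. The median log2 fold change was -0.87 for host genes and -0.86 for all genes tested, so host genes moved with the table as a whole. After median-of-ratios scaling between libraries the medians were 0.10 and 0.00, and 1 host gene rose and 1 fell, beside 1.87% and 1.05% of all genes. In bulk grains, fewer cells of a type and less RNA per cell cannot be told apart.

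The calls in TPM as deposited depended on single libraries. Without wild-type replicate 1, the library that stands apart, 0 host genes rose and 1 fell by limma, with 6 rising and 58 falling at an unadjusted p under 0.05. Without sgs3 replicate 1, sgs3 replicate 2 or wild-type replicate 3, 0 rose and 0 fell, while 46, 49 and 57 were lower at an unadjusted p under 0.05. Without sgs3 replicate 3 the falls were 57, and without wild-type replicate 2 they were 69.

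Of the 5 host genes with the smallest p 4 have no description. Of these LOC_Os11g34230, chosen here after its values were seen, was the only host gene called on both scales. It had 5.48, 5.62 and 14.04 TPM in sgs3 and 140.6, 61.29 and 105.9 TPM in wild type, without overlap. On the log2 scale limma put the change at -3.50 ± 0.467 (SE), with an adjusted p of 0.00776, and at -2.48 with an adjusted p of 0.00411 once scaled. Leaving out sgs3 replicate 1, sgs3 replicate 2 or wild-type replicate 3 took its adjusted p to 0.102, 0.0768 and 0.0754.

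The 5 described host genes with the smallest p, among the first 9 by p, all fell in TPM as deposited (limma, adjusted p = 0.044 each) and none passed after scaling. The sigma subunit of AP-4 (LOC_Os10g22330), an adaptor of vesicle sorting, had 10.17, 8.31 and 18.76 TPM in sgs3 and 70.97, 35.31 and 46.50 TPM in wild type. Its log2 fold change was -1.97 ± 0.418 (SE), and -0.93 after scaling. The alpha subunit of the translocon-associated protein (LOC_Os06g50154), which sits at the channel for secreted proteins, had 100.7, 103.7 and 298.9 TPM in sgs3 and 1382, 499.6 and 742.4 TPM in wild type. Its log2 fold change was -2.44 ± 0.577 (SE), and -1.35 after scaling.

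60S L39 (LOC_Os02g55370) had 18.84, 17.34 and 87.41 TPM in sgs3 and 453.1, 131.2 and 215.7 TPM in wild type, with a log2 fold change of -2.89, and -1.81 after scaling. 60S L44 (LOC_Os07g33860, levels above) changed by -2.63, and by -1.55 after scaling. The prolyl isomerase FKBP15-1 (LOC_Os01g68710), which assists protein folding, had 24.28, 25.82 and 61.18 TPM in sgs3 and 229, 93.72 and 133.7 TPM in wild type, with a log2 fold change of -2.04, and -0.96 after scaling. In all 5 genes the third sgs3 replicate was the highest of its group and the first wild-type replicate the highest of the other.

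**Figure D5:**
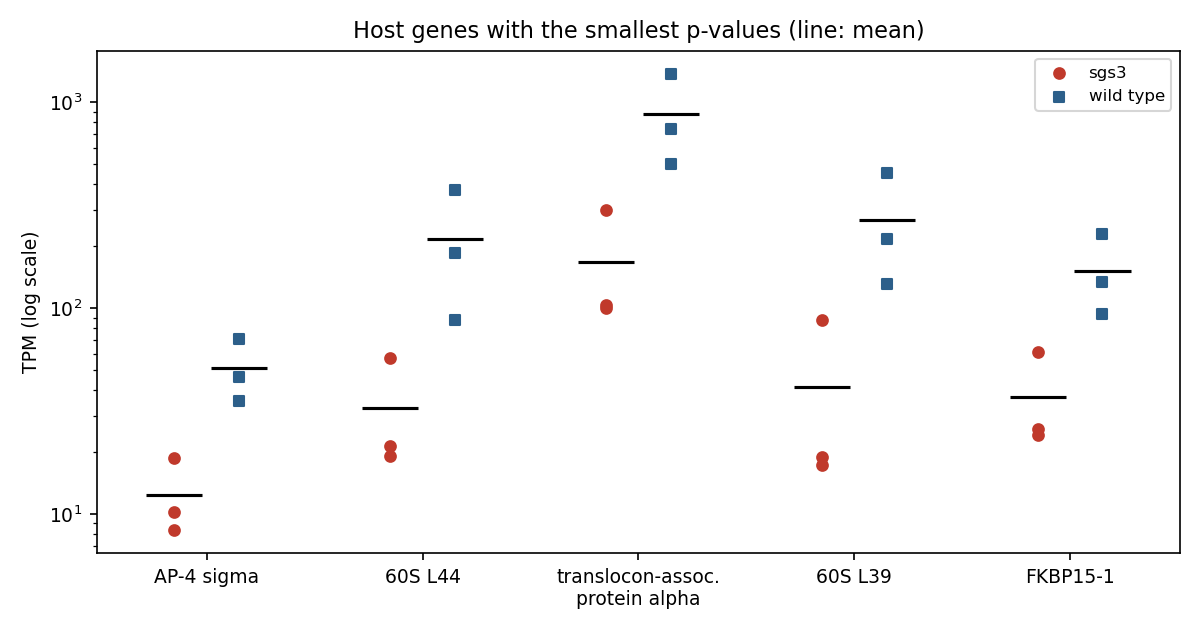
TPM in each library (log scale) of the 5 described host genes with the smallest p (red circles: sgs3, blue squares: wild type, 3 libraries each; lines are means). Every sgs3 library lies below every wild-type library in each gene.

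The 3 host genes that rose in TPM as deposited were a peroxygenase gene, a serine carboxypeptidase 2 gene and a gene without a description. None of the 3 passed after scaling, and none rose in 4 of the 6 fits that leave out a library. Peroxygenase (LOC_Os04g43200), of a family found on oil bodies, had 114.9, 192.7 and 85.73 TPM in sgs3 and 23.49, 71.23 and 40.33 TPM in wild type. Serine carboxypeptidase 2 (LOC_Os05g18604), a protease of cereal grains, had 145.4, 158.1 and 130 TPM in sgs3 and 57.38, 85.75 and 55.83 TPM in wild type. Its event had levels of 0.968, 0.973 and 0.968 in sgs3 and 0.986 and 0.953 in wild type, with overlap, while the TPM groups did not overlap. After scaling the adjusted p was 0.0777 for peroxygenase and 0.0567 for the carboxypeptidase.

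The host gene that rose after scaling was a homolog of 1-aminocyclopropane-1-carboxylate oxidase (LOC_Os10g37880), named after the enzyme that makes ethylene. It had 2.09, 3.22 and 5.08 TPM in sgs3 and 1.09, 1.22 and 1.15 TPM in wild type. Its log2 fold change was 1.66 after scaling (limma, adjusted p = 0.0079), and 0.997 in TPM as deposited (adjusted p = 0.0521), which did not pass.

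Genes of families that regulate splice site choice were looked at as lists taken from their descriptions. The lists include glycine-rich RNA-binding proteins described as mitochondrial and a cold-inducible RNA-binding protein. Whether each member acts in splicing was not checked. SR proteins recruit the spliceosome to exons, U2AF marks the 3' splice site, polypyrimidine tract-binding proteins and hnRNPs often repress exon use, and U1 snRNP marks the 5' splice site. Of 71 such genes 56 were tested, and 0 rose and 20 fell in TPM as deposited, with a median log2 fold change of -1.21. Over all genes tested 1.55% rose and 26.3% fell, with a median of -0.86. The falls were 6 of 17 SR protein genes, 2 of 5 polypyrimidine tract-binding protein genes, 12 of 27 hnRNP and glycine-rich RNA-binding protein genes, 0 of 5 U2AF genes and 0 of 2 U1 snRNP genes. After scaling none of the 56 passed by limma (16 at an unadjusted p under 0.05) and the median was -0.20. The count of falls was also 0 without sgs3 replicate 1, sgs3 replicate 2, wild-type replicate 1 or wild-type replicate 3, with 16 to 27 regulators under an unadjusted p of 0.05, and all calls together were 41 without wild-type replicate 2.

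Among them is the SR protein gene RSZ23 (LOC_Os02g39720), which the rules for naming genes do not cover. It had 35.36, 49.35 and 85.13 TPM in sgs3 and 359.1, 131.3 and 143.6 TPM in wild type. By limma its log2 fold change was -1.82 ± 0.509 (SE) with an adjusted p of 0.0436, and -0.73 after scaling (adjusted p = 0.155). The only list member that hosts a mutually exclusive event was SCL30 (LOC_Os12g38430), with 3 equal-length events under the read minimum. SCL30 had 17.13, 18.64 and 26.04 TPM in sgs3 and 65.99, 27.51 and 39.02 TPM in wild type, and it did not pass the test (adjusted p = 0.0792). At 34, 73 and 169 reads over all libraries, its events allow no statement on its own exons.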

How the data were processed

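Libraries were prepared from rice grain RNA with a SMARTer mRNA kit and sequenced on a HiSeq, per the labels. HISAT2 2.1.0, StringTie, RSEM, Bowtie2 and DESeq2 1.12.4 are named in the submitters' processing notes without their roles, and no genome build is named there. The authors deposited TPM per gene, with no recorded scaling between libraries and no depth. Per the file headers, their splicing tables hold junction read counts, inclusion levels as a fraction, and the p-value and FDR of their own test on junction reads.

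The group headings of the read columns and of the inclusion columns contradict each other. Inclusion levels recomputed from reads headed wild type matched the levels headed sgs3 to within 0.0005. The inclusion headings were followed, since under them junction reads agreed in direction with TPM for 104 of the 105 mutually exclusive events in genes that differ at least 2-fold. Cells of the splicing tables carry no replicate number.

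A minimum of 20 junction reads per library left 5471 events over 5 tables, which were fitted with a quasi-binomial model in R 4.3.3. The dispersion was moderated with limma 3.58.1 along a trend (9.81 prior degrees of freedom, at least 1), and p-values were adjusted by Benjamini-Hochberg over all 5471 events. Gene values were tested with limma on log2(TPM + 1), keeping genes that reach 1 TPM in 3 or more libraries. Fold changes are on that scale, which understates low genes. Both models were tested on simulated data. Python 3.11.15 with pandas 2.3.3, numpy 2.4.6 and matplotlib 3.10.9 made the tables and figures.

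Named events were the called one, the 12 largest differences without overlap, the 5 deepest, the 5 nearest 0.5 and those with the shortest and longest exon. Host genes were the 5 with the smallest p; because 4 of these have no description, the first 5 with one were given instead. Events without a description were left unnamed. Members, lists and rules were chosen with earlier results of these data known. Nearby loci of the same description were searched within 60 locus numbers. Alternatives changed the read minimum, thresholds, model, scaling, pseudocount, filter and libraries used.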

Additional observations from a re-analysis of the deposited data

How the results depend on the processing

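The 1 called mutually exclusive event was also the count with a minimum of 10 reads, a minimum difference of 0.2, no minimum difference and, added after seeing the data, 1 common dispersion. It was 3 with a minimum of 1 read and 2 at an adjusted p under 0.1. It was 0 with a minimum of 50 reads (13 at an unadjusted p under 0.05), with limma on logit levels (5) and without moderation of the dispersion (9). It was 10 of the 139 tested events by an FDR under 0.05 in the authors' deposited table with a difference of at least 0.1. Leaving out 1 library gave 1 to 3 calls, a median difference of 0.0175 to 0.041 and 61 to 79 events without overlap, since fewer libraries overlap less. The coatomer call held in all 5 of these fits.

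Host gene calls, 3 risen and 49 fallen, became 1 and 1 after median-of-ratios scaling, which turned the median log2 fold change of -0.87 to 0.10, and 0 and 0 without a filter on low values (6 and 83 at an unadjusted p under 0.05). Leaving out 1 library gave 0 to 4 risen, 0 to 69 fallen and 0 to 41 splicing regulators in place of 20. Regulators were at 0 after scaling and without the filter. Without sgs3 replicates 1 or 2 or wild-type replicates 1 or 3 almost no call was left, with at most 1 host gene in either direction, and the cause was not tested. Deviations of same-numbered libraries from their group means correlated at -0.527, 0.212 and -0.0913, so no pairing by replicate number was seen. With 3 libraries a group this check cannot exclude a pairing. A fit with the replicate number as a block called 0 risen and 1 fallen host genes and 0 regulators. For splicing, no paired analysis was possible because the cells carry no replicate number.

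Of 160 host genes tested on both scales 68 changed sign after scaling, 1 of them called in TPM as deposited (LOC_Os01g64750, a sterol glucosyltransferase gene). Among the hosts of the named events with the largest differences these were LOC_Os01g12950 (0.34), LOC_Os02g11830 (0.0708), LOC_Os02g35590 (0.0895), LOC_Os04g43050 (0.309) and LOC_Os10g35520 (0.103). Among the hosts of the deepest events they were LOC_Os01g44220 (0.586), LOC_Os02g32660 (0.871) and LOC_Os10g39420 (1.07). Among those of the events nearest 0.5 they were LOC_Os03g31839 (0.0832), LOC_Os03g64360 (0.542) and LOC_Os07g42440 (0.534). Leaving out 1 library gave -0.101 to 0.185 for LOC_Os03g45210 and -0.0023 to 0.219 for LOC_Os05g06470. None of these passed the test under that setting.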
